A study of Mus musculus with 27 samples.

Results

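Nodal, Lefty and Cripto signalling was followed through its ligand Nodal, its secreted inhibitors Lefty1 and Lefty2, its co-receptor Tdgf1 (Cripto) and the activin receptors Acvr1b, Acvr2a and Acvr2b. The members were listed by name for their role in the pathway, with earlier results of these data known. Their counts against all genes or promoters are therefore descriptions. Of the 8 genes listed, 7 were analysed, out of 20156 genes in the expression tables, and Smad2 was not analysed here. For each gene the transcript level and the reads of nucleosomes and histone marks within 1000 bp of the transcription start site (TSS) were compared.

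The study took mouse embryonic fibroblasts (MEFs) through a stable intermediate, the pre-iPSC, to induced pluripotent stem cells (iPSCs). The MEFs came from embryos of day 13.5 hemizygous for an Oct4-GFP reporter transgene and a Rosa26 allele, with the genetic background CBA/CaJ and C57BL/6J in the labels that give one. Per the study's methods, these strains were those of the fathers carrying the reporter, and the mothers were 129Sv/Jae. Pre-iPSCs and iPSCs were made from such MEFs with retroviruses carrying Oct4, Sox2, Klf4 and c-Myc. They were stable clones grown for 6 passages on a layer of inactivated MEFs with leukemia inhibitory factor. Each cell type had 2 libraries for RNA-seq, total histone H3, H3K4me3 and H3K27me3, and 1 library for H3K9me3. Per the study's methods, all histone libraries came from chromatin digested with micrococcal nuclease. The amount of enzyme and the time of digestion differed between MEFs and the other cell types. Differences of marks or H3 against MEFs therefore cannot be told apart from those of digestion. H3K4me3 is a mark of active and poised promoters, H3K27me3 is deposited by Polycomb at silent developmental genes, and H3K9me3 marks heterochromatin. The study's methods name 2 pre-iPSC clones and the iPSCs that correspond to them, so libraries of these cell types may be paired by clone. The labels do not say which clone or culture a library came from. No pairing by clone could therefore be assigned, and p-values measure the spread between these libraries.

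Nodal belongs to the TGF-beta superfamily and patterns the mesendoderm and the left-right axis of the embryo. It binds a type II activin receptor and the type I receptor Acvr1b together with the co-receptor Cripto, and the receptors phosphorylate Smad2 and Smad3. These join Smad4 and the forkhead factor Foxh1 on target genes, which include Nodal itself and the Lefty genes, whose proteins block the ligand and its co-receptor. Mouse embryonic stem cells are known to express the ligand, both inhibitors and Cripto.

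Marker levels were set against the labels. The paper describes pre-iPSCs as lacking endogenous pluripotency markers. Whether the layer of inactivated MEFs accounts for fibroblast markers in pre-iPSCs and iPSCs was not tested. All 8 fibroblast markers were at 1 FPKM (a transcript level scaled to gene length and library depth) or more in every library of all 3 cell types, so only their level sets the MEFs apart. All 8 pluripotency markers reached it in both iPSC libraries and none in MEFs. In the pre-iPSC libraries 4 of 8 pluripotency markers reached that level, and Nanog, Esrrb and Zfp42 were at or below 0.519 FPKM. Of the 4 that reached it, Pou5f1 and Sox2 were delivered factors. In pre-iPSC replicates 1 and 2 Pou5f1 was at 378 and 3184 FPKM and Sox2 at 272 and 171. Dppa5a was at 1.70 and 5.01 FPKM and Utf1 at 23.2 and 1.67 in these libraries. The summed level of the fibroblast markers was 4199 to 4328 FPKM in MEFs, 93.9 to 291 in pre-iPSCs and 205 to 237 in iPSCs, and none of the 8 was listed at 0 in any library. Summed primitive endoderm markers lay between 5.01 and 34.0 FPKM, highest in MEFs through Dab2 (31.3 and 27.4 FPKM). Gata4, at 2.24 and 1.67 FPKM in iPSCs, was called higher there than in MEFs. Gata6 went the other way. Against MEFs it differed by -1.29 (pre-iPSCs, called) and -0.56 (iPSCs, not called) on the log2(FPKM + 1) scale. Dab2 was called lower than in MEFs for both other cell types (-2.56 and -2.17). Sox7 stayed at or below 0.588 FPKM in every library. Sox17 was listed at 0 in MEFs and pre-iPSCs. Reads in called nucleosomes numbered 12007350 to 15222040 per mark library and 67362868 to 108211816 per H3 library. The H3 libraries of pre-iPSC replicate 1 and iPSC replicate 1 stood apart, with normalization factors of 1.96 and 1.42 against 0.735 to 0.847 in the other 4.

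The members differed in the cell types in which they were high. Tdgf1 was already high in pre-iPSCs, Lefty1 and Lefty2 appeared in iPSCs, Nodal differed between the pre-iPSC libraries and was high in iPSCs, and Acvr2b was higher in iPSCs than in MEFs. The transcripts of Acvr1b and Acvr2a were called in no comparison. In bulk samples, more cells of a type and more RNA per cell cannot be told apart.

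**Figure D1:**
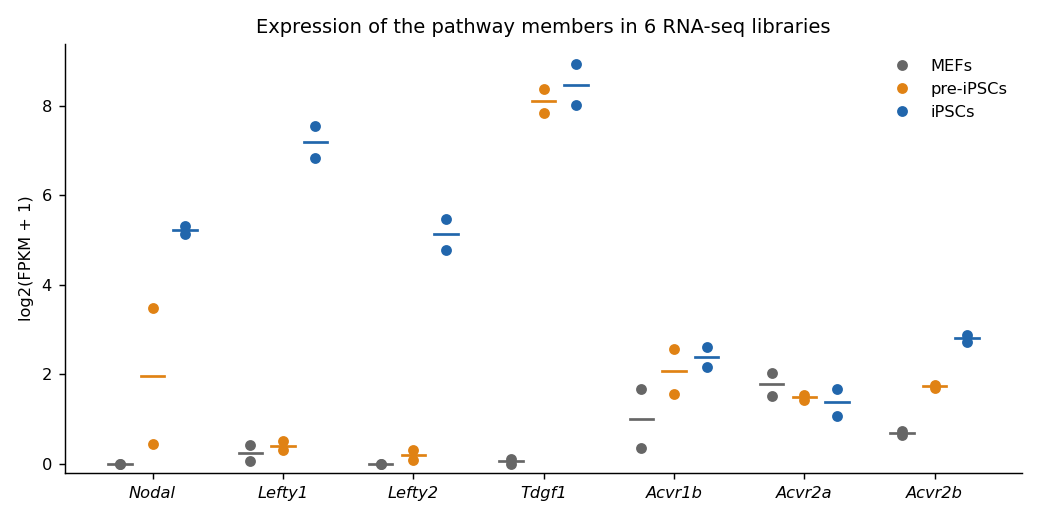
Expression of the 7 members in the 6 RNA-seq libraries, as log2(FPKM + 1) on the vertical axis. Points are libraries and short lines are means of the 2 libraries of MEFs (grey), pre-iPSCs (orange) and iPSCs (blue). Tdgf1 is high in pre-iPSCs and iPSCs, both Lefty genes are high in iPSCs only, and the Nodal points of the pre-iPSCs are far apart.

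A gene was called changed at a limma adjusted p below 0.05 over the 12401 genes tested and a difference of at least 1 on the log2(FPKM + 1) scale. This scale understates the change of low genes, and differences from a cell type listed at 0 depend on the added 1. Between pre-iPSCs and MEFs, 1 of 7 members was called, higher, against 7.39% of all genes. The median difference of the members was 1.05, and of all genes -0.04. Between iPSCs and pre-iPSCs 3 of 7 were higher, against 3.91% of genes (4.71% were lower, 8.62% in all), with medians of 1.07 and -0.09. Between iPSCs and MEFs 5 of 7 were higher, against 10.3%, with medians of 5.13 and -0.14. No member was called lower. Since the members were chosen with earlier results of these data known, these counts and medians describe the list and do not test it. The comparisons share libraries, so they are not independent of each other. With 2 libraries a cell type, an exact permutation test for a single gene cannot go below 0.33, so the tests rest on the spread modelled over all genes.

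Nodal (NM_013611, chr10:60880720-60888085, plus strand, mm9) encodes the ligand. It was listed at 0 in both MEF libraries, at 10.2 and 0.354 FPKM in pre-iPSC replicates 1 and 2, and at 39.1 and 34.4 FPKM in iPSCs. The cell types did not overlap, but the pre-iPSC libraries differed more from each other than the iPSC libraries did. On the log2(FPKM + 1) scale iPSCs were above MEFs by 5.24 ± 0.73 (SE; limma adjusted p = 0.00325) and above pre-iPSCs by 3.27 ± 0.73 (adjusted p = 0.0351). The difference between pre-iPSCs and MEFs was 1.96 ± 0.73 (adjusted p = 0.113). Pre-iPSC replicate 2 weighed on both steps. Without it the difference between pre-iPSCs and MEFs was 3.45 and called, and that between iPSCs and pre-iPSCs was 1.79 and not called. The call between iPSCs and pre-iPSCs was also lost with a pseudocount of 0.1 (4.09) or no filter on low values (3.27), and without iPSC replicate 1 (3.95) or iPSC replicate 2 (2.60), that between iPSCs and MEFs without iPSC replicate 2 (4.56), and that between pre-iPSCs and MEFs was gained without MEF replicate 2 (2.77).

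Lefty1 (NM_010094, chr1:182865170-182868532, plus strand, mm9) and Lefty2 (NM_177099, chr1:182823250-182829233, plus strand, mm9) encode the secreted inhibitors. Their start sites lie 41920 bp apart. Lefty1 was at 0.331 and 0.0512 FPKM in MEFs, then 0.428 and 0.238 in pre-iPSCs, then 114 and 187 in iPSCs. Lefty2 was listed at 0 in both MEF libraries, and was at 0.233 and 0.0593 FPKM in pre-iPSCs and 26.3 and 43.7 in iPSCs. Both genes were thus near 0 in every library but those of iPSCs, where Lefty1 was the higher in each library. Lefty1 ranked 586 and 259 among the 20156 genes in iPSC replicates 1 and 2. Lefty1 rose from pre-iPSCs to iPSCs by 6.79 ± 0.41 (limma adjusted p = 0.000488) and Lefty2 by 4.93 ± 0.38 (adjusted p = 0.00128) on the log2(FPKM + 1) scale. Within replicates 1 and 2 the FPKM ratio of iPSC to pre-iPSC was 266 and 785 for Lefty1 and 113 and 737 for Lefty2. Between pre-iPSCs and MEFs neither was called (0.17 ± 0.41 and 0.19 ± 0.38). The genes are close copies of each other, and reads that both can take were left out when only unique alignments were kept.

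Tdgf1 (NM_011562, chr9:110842112-110848662, minus strand, mm9) encodes the membrane-anchored co-receptor. It was at 0 and 0.0833 FPKM in MEFs, then 228 and 333 in pre-iPSCs, then 258 and 488 in iPSCs. The MEF libraries stood apart from all others, and the ranges of pre-iPSCs and iPSCs overlapped. Tdgf1 rose from MEFs to pre-iPSCs by 8.05 ± 0.36 (limma adjusted p = 0.000275) on the log2(FPKM + 1) scale, and it ranked 252 and 180 in the pre-iPSC libraries. Between iPSCs and pre-iPSCs the difference was 0.36 ± 0.36 (adjusted p = 0.657). The mouse annotation also holds the processed copy Tdgf1-ps2, and reads shared with it would not have been unique.

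The receptors were low throughout. Acvr2b (NM_007397, chr9:119311619-119342624, plus strand, mm9), a type II receptor, was at 0.558 and 0.670 FPKM in MEFs, then 2.25 and 2.41 in pre-iPSCs, then 6.38 and 5.66 in iPSCs. Its 3 cell types did not overlap, and the replicates lay close together. It was higher in iPSCs than in MEFs by 2.12 ± 0.34 (limma adjusted p = 0.0055), while the steps of 1.05 ± 0.34 and 1.07 ± 0.34 through the pre-iPSCs did not pass (adjusted p = 0.0818 and 0.112).

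Acvr1b (NM_007395, chr15:101004556-101043032, plus strand, mm9), the type I receptor, was at 2.18 and 0.282 FPKM in MEFs, then 4.92 and 1.96 in pre-iPSCs, then 3.50 and 5.09 in iPSCs. The MEF range overlapped that of pre-iPSCs. Its difference between iPSCs and MEFs was 1.37 ± 0.49 (limma adjusted p = 0.0774). Without MEF replicate 1 it was 1.89 and called, as it was without iPSC replicate 1 (2.17), and without MEF replicate 1 the difference between pre-iPSCs and MEFs (1.57) was called too. Acvr2a (NM_007396, chr2:48669629-48758784, plus strand, mm9), the other type II receptor, was at 3.08 and 1.88 FPKM in MEFs, then 1.93 and 1.70 in pre-iPSCs, then 1.11 and 2.20 in iPSCs, and all ranges overlapped. Its differences ran from -0.40 to -0.11 and none was called.

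**Figure D2:**
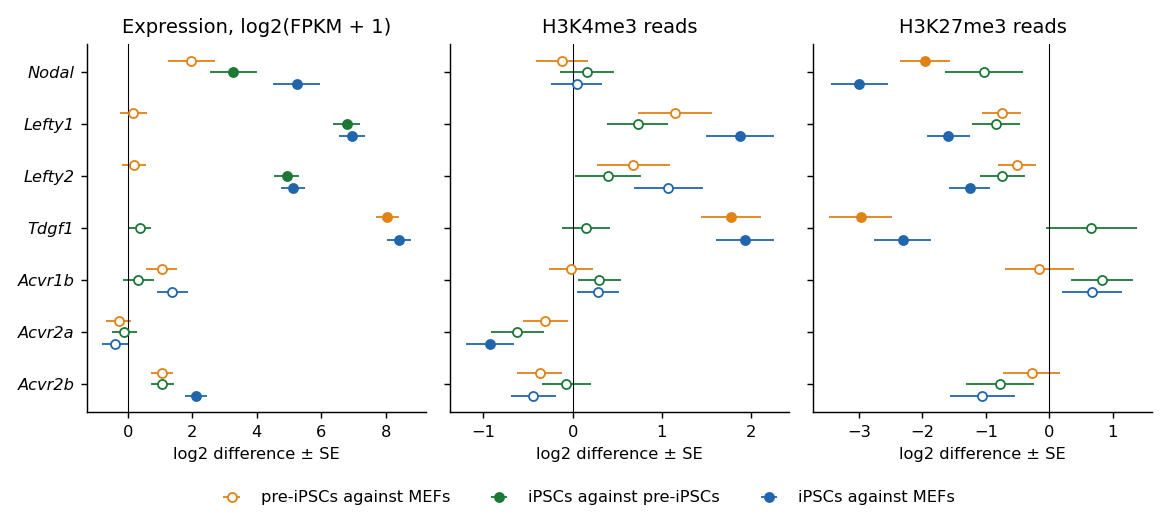
Differences of the 7 members on the log2 scale with their SE, for expression (limma), H3K4me3 reads and H3K27me3 reads (edgeR). Colours give the comparison, filled points were called and open points were not; Acvr2a had too few H3K27me3 reads to be tested. For Nodal, Lefty1, Lefty2 and Tdgf1 against MEFs, the expression differences lie at or right of 0 and the H3K27me3 differences left of it.

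The order of levels in iPSCs by mean FPKM was Tdgf1, Lefty1, Nodal, Lefty2, Acvr2b, Acvr1b and Acvr2a. The values of the neighbours Nodal and Lefty2 overlapped between libraries, and those of the other neighbours in this order did not.

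The genes whose levels over the 6 libraries were most like each member, by Pearson correlation of log2(FPKM + 1), are given as a description, since the points share cell types and few libraries. For Nodal they were Mycn (r = 0.997), Pm20d1 (0.997) and Stat4 (0.995). Mycn, a Myc family transcription factor, was at 16.0 and 0.615 FPKM in pre-iPSC replicates 1 and 2 and at 46.7 and 40.0 in iPSCs, so it had the same gap between the pre-iPSC libraries as Nodal. For Lefty1 they were Slc4a5, Dmrt1 and Rimklb (r = 0.999 to 1.00), and for Lefty2 Dmrt1, Ap1m2 and Vrtn, all near 0 outside iPSCs. For Tdgf1 they were Fbxo15 (0.999), Slc35f2 (0.996) and AU018091 (0.995). Fbxo15, a known target of Oct4 and Sox2, was at 0 and 0.104 FPKM in MEFs, then 54.7 and 70.3 in pre-iPSCs, then 72.5 and 82.1 in iPSCs. Between members r was 0.999 for Lefty1 with Lefty2, 0.870 for Nodal with Lefty1 and 0.551 for Tdgf1 with Lefty1.

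The promoters were then compared. The ligand, inhibitor and co-receptor genes had fewer CpG dinucleotides around their start sites than the median promoter, and the receptors had more. Within 500 bp either side of the TSS Lefty2, Lefty1, Tdgf1 and Nodal held 21, 22, 31 and 38 CpG dinucleotides, and Acvr2b, Acvr1b and Acvr2a held 124, 126 and 143. The median of all 20156 promoters was 47. Set against base composition, the CpG observed-to-expected ratio of Tdgf1 was 0.602, next to the median of 0.601, and those of Lefty1, Lefty2 and Nodal were 0.265, 0.283 and 0.472. The 250 bp upstream of the TSS are shown for the 4 genes whose H3K27me3 changed, read from the mm9 genome on the coding strand; capitals mark the Smad box AGAC on either strand (so AGAC or GTCT) and, in the last 50 bp, TATAAA.

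Lefty1, chr1:182864920-182865169: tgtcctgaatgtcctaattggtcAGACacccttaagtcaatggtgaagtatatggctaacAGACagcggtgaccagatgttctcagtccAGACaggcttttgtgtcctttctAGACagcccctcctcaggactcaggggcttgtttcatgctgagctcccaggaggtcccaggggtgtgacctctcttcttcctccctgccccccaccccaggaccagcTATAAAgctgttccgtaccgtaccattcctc
Lefty2, chr1:182823000-182823249: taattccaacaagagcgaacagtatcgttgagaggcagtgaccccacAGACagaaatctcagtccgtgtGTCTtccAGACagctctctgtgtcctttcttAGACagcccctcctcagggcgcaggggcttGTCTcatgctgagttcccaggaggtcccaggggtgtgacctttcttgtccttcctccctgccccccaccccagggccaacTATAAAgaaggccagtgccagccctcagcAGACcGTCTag
Nodal, chr10:60880470-60880719: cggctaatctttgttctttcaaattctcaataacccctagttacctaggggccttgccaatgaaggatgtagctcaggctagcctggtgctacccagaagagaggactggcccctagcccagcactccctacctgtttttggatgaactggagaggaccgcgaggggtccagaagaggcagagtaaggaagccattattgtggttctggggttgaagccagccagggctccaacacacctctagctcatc
Tdgf1, chr9:110848663-110848912: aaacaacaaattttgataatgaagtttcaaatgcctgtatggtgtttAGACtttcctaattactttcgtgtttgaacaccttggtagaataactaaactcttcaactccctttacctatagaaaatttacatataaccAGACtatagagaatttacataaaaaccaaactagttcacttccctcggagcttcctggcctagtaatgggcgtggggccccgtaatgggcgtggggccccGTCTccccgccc

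The Lefty promoters resembled each other over much of this stretch. In a pairwise alignment 183 of 219 aligned bases were identical (83.6%), against 53.8% to 62.1% for the other pairs aligned. The longest shared run was 27 bp, tcccaggaggtcccaggggtgtgacct, from -94 to -68 in Lefty1 and from -106 to -80 in Lefty2. Both held TATAAA, from -31 to -26 in Lefty1 and from -40 to -35 in Lefty2. Of all promoters, 3.32% held it in the last 50 bp. Smad boxes numbered 7 in Lefty2, 4 in Lefty1, 3 in Tdgf1 and 0 in Nodal. The median promoter held 2, and 0.506% held at least 7, 10.7% at least 4 and 26.3% at least 3. The Foxh1 motif AATNCACA was found on either strand within 1000 bp of the TSS only in Lefty1, from -902 to -895, in the stretch chr1:182864256-182864287, where capitals mark the match: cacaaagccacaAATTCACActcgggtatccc. Of all promoters 25.1% held this motif in that window. The palindrome GTCTAGAC and the octamer ATGCAAAT had no match in that window in any of the 7 members, against 1.58% and 8.64% of all promoters with one. A match describes letters only, and no match says nothing of the factor.

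In MEFs, H3K27me3 within 1000 bp of the TSS was higher at the same 4 genes than at the receptors. Their promoters stood at percentiles 86.3 to 99.9 of all promoters for this mark there, and those of the receptors at 19.3 to 74.0. Against MEFs the mark was called lower at Nodal and Tdgf1 in pre-iPSCs and at all 4 in iPSCs. The 4 were named above by these calls, so the calls do not set them apart a second time. A promoter was called at an edgeR adjusted p below 0.05 over the 10185 promoters tested. Between pre-iPSCs and MEFs 2 of 6 members tested were called, lower, against 3.25% of all promoters (5.04% were higher, 8.29% in all), with a median log2 difference of -0.63 for the members and -0.02 for all. Between iPSCs and MEFs 4 of 6 were lower, against 4.11% (7.3% were higher), with medians of -1.42 and -0.02. Between iPSCs and pre-iPSCs none was called by edgeR, against 0.805% of promoters in either direction (0.137% lower), or by DESeq2; 2 of 6, Lefty1 and Lefty2, had an unadjusted p below 0.05, as had 1181 of the 10185 promoters. Acvr2a, with 3 to 8 reads a library, did not pass the filter on low counts. Nodal, with 3 to 11 reads outside MEFs, and Tdgf1, with 2 to 7, passed it only through MEFs, where they were high. H3K9me3 gave part of the same split in MEFs, from 1 library with 3 to 15 reads a member. Nodal, Lefty1, Lefty2 and Tdgf1 stood at percentiles 88.1, 88.1, 82.2 and 69.9 there, and Acvr1b, Acvr2a and Acvr2b at 32.7, 13.2 and 69.9. Reads of the marks were not scaled to H3.

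**Figure D3:**
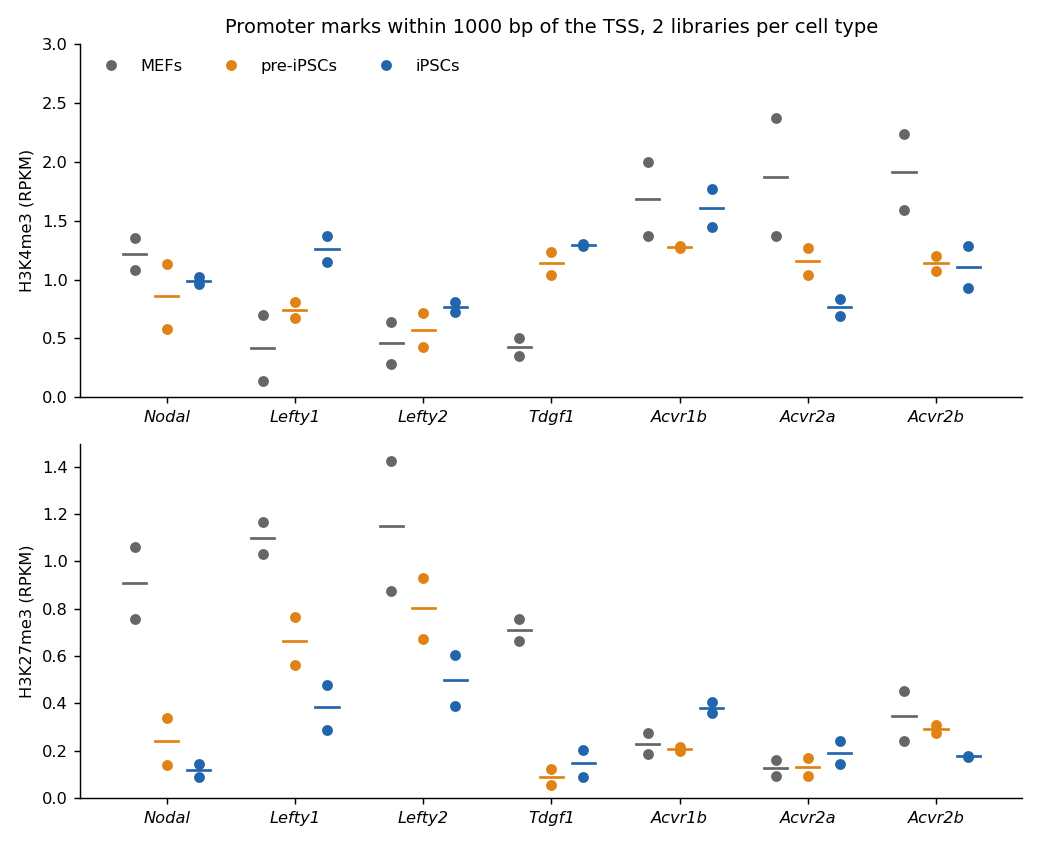
H3K4me3 (top) and H3K27me3 (bottom) at the 7 members, as reads within 1000 bp of the TSS scaled to window length and unique reads of the library (RPKM). Points are libraries and short lines means of 2 libraries; the H3K27me3 points of Nodal, Lefty1, Lefty2 and Tdgf1 in MEFs lie above those of pre-iPSCs and iPSCs, except that the lower MEF point of Lefty2 lies below the higher pre-iPSC point.

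At Tdgf1 the H3K27me3 reads were 25 and 25 in MEFs, then 2 and 4 in pre-iPSCs, then 7 and 3 in iPSCs. The MEF libraries did not overlap the others. The mark fell by 2.97 ± 0.50 on the log2 scale from MEFs to pre-iPSCs (edgeR adjusted p = 3.03e-05) and iPSCs were below MEFs by a log2 difference of -2.31 ± 0.45 (adjusted p = 0.000207).

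At Nodal the reads were 25 and 40 in MEFs, then 5 and 11 in pre-iPSCs, then 5 and 3 in iPSCs, and again MEFs did not overlap the others. The log2 difference was -1.96 ± 0.39 for pre-iPSCs (edgeR adjusted p = 0.000432) and -2.99 ± 0.45 for iPSCs against MEFs (adjusted p = 5.58e-06). Without pre-iPSC replicate 1 the first was -1.48 and not called.

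At Lefty1 the reads were 34 and 44 in MEFs, then 20 and 25 in pre-iPSCs, then 10 and 16 in iPSCs, and the cell types did not overlap. Only the difference between iPSCs and MEFs passed, at -1.59 ± 0.34 (edgeR adjusted p = 0.000642), and pre-iPSCs against MEFs gave -0.75 ± 0.30 (adjusted p = 0.114). At Lefty2 the reads were 47 and 33 in MEFs, then 33 and 22 in pre-iPSCs, then 21 and 13 in iPSCs, and scaled to depth the ranges of MEFs (0.874 to 1.42 RPKM) and pre-iPSCs (0.672 to 0.929 RPKM) overlapped. The difference between iPSCs and MEFs was -1.26 ± 0.33 (adjusted p = 0.00634). It was not called without MEF replicate 1 (-0.89) or iPSC replicate 2 (-1.05). In MEFs the Lefty1 promoter stood at percentiles 98.3 and 99.2 of all promoters for this mark, and Lefty2 at 99.9 and 94.6.

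The receptors had few H3K27me3 reads. Acvr1b had 9 and 7 in MEFs, then 7 and 7 in pre-iPSCs, then 14 and 12 in iPSCs, with iPSCs the higher and the difference of 0.67 ± 0.47 from MEFs not called. Acvr2b had 8 and 17, 11 and 9, and 6 and 6 in the same order, with a difference of -1.05 ± 0.51 between iPSCs and MEFs (edgeR adjusted p = 0.170).

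These H3K27me3 calls depended on the method, as did those of all promoters, and no called member change reversed in any setting. Between iPSCs and MEFs 1162 of 10185 promoters were called by edgeR, 18 of 10185 by DESeq2 and 161 of 4290 within 500 bp. With DESeq2 only Nodal between iPSCs and MEFs remained called, and with reads within 500 bp of the TSS only Tdgf1 between pre-iPSCs and MEFs.

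H3K4me3 rose at Tdgf1 with its transcript and at Lefty1 in iPSCs, fell at Acvr2a, and was not called at Nodal. Over the 17645 promoters tested, 1 of 7 members was higher in pre-iPSCs than in MEFs, against 3.01% of promoters (0.85% were lower, 3.86% in all). Between iPSCs and MEFs 2 of 7 were higher, against 9.79%, and 1 was lower, against 4.17%. No member was called between iPSCs and pre-iPSCs by edgeR or DESeq2, against 0.034% of promoters in either direction (0.0227% higher, 0.0113% lower), and 2 of 7, Lefty1 and Acvr2a, had an unadjusted p below 0.05, as had 1578 of the 17645 promoters. Median log2 differences of the members were -0.02, 0.17 and 0.29 for pre-iPSCs against MEFs, iPSCs against pre-iPSCs and iPSCs against MEFs, and those of all promoters -0.02, -0.00 and -0.03. Scaling to library totals moved the median of all promoters to -0.40 and -0.38 for pre-iPSCs and iPSCs against MEFs and turned the share of higher among called promoters from 78% to 17% and from 70.2% to 26.2%. The 4 member calls for this mark held under that scaling, and differences below are relative to the other promoters.

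At Tdgf1 the H3K4me3 reads were 15 and 11 in MEFs, then 34 and 38 in pre-iPSCs, then 42 and 39 in iPSCs. The MEFs stood below all others. The mark was higher by 1.78 ± 0.33 on the log2 scale in pre-iPSCs (edgeR adjusted p = 0.000769) and by 1.93 ± 0.33 in iPSCs (adjusted p = 0.000124) than in MEFs. At Tdgf1 both marks and the transcript were called in pre-iPSCs and in iPSCs against MEFs, and at Lefty1 in iPSCs against MEFs.

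At Lefty1 the reads were 4 and 22 in MEFs, then 22 and 25 in pre-iPSCs, then 44 and 35 in iPSCs, so the MEF libraries differed from each other and the higher met the lower pre-iPSC one. The difference between iPSCs and MEFs was 1.88 ± 0.38 (edgeR adjusted p = 0.000801), and without MEF replicate 1 it was 1.02 and not called. Between pre-iPSCs and MEFs it was 1.15 ± 0.42 (adjusted p = 0.106). This was called without MEF replicate 2 (2.95) or iPSC replicate 2 (1.15).

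At Lefty2 the reads were 19 and 9, 14 and 22, and 26 and 22 in the same order, with a difference of 1.07 ± 0.39 between iPSCs and MEFs (edgeR adjusted p = 0.0527). At Nodal they were 40 and 34, 37 and 18, and 31 and 31. The Nodal promoter thus carried this mark in MEFs too, where its transcript was listed at 0, and its pre-iPSC libraries were the farthest apart. Its differences ran from -0.12 to 0.17 with SEs of 0.29 to 0.30.

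Acvr2a had 70 and 43 reads in MEFs, then 34 and 39 in pre-iPSCs, then 27 and 21 in iPSCs. It fell by 0.93 ± 0.27 from MEFs to iPSCs (edgeR adjusted p = 0.0178), with no call on its transcript. The call was lost without MEF replicate 1 (-0.65), iPSC replicate 1 (-1.01) or iPSC replicate 2 (-0.85), and with reads within 500 bp of the TSS (-1.10). Acvr1b had 59 and 43, 42 and 39, and 57 and 44 reads, and Acvr2b 66 and 50, 35 and 37, and 30 and 39, with no call. With DESeq2 no member was called between pre-iPSCs and MEFs, and Tdgf1 alone between iPSCs and MEFs.

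**Figure D4:**
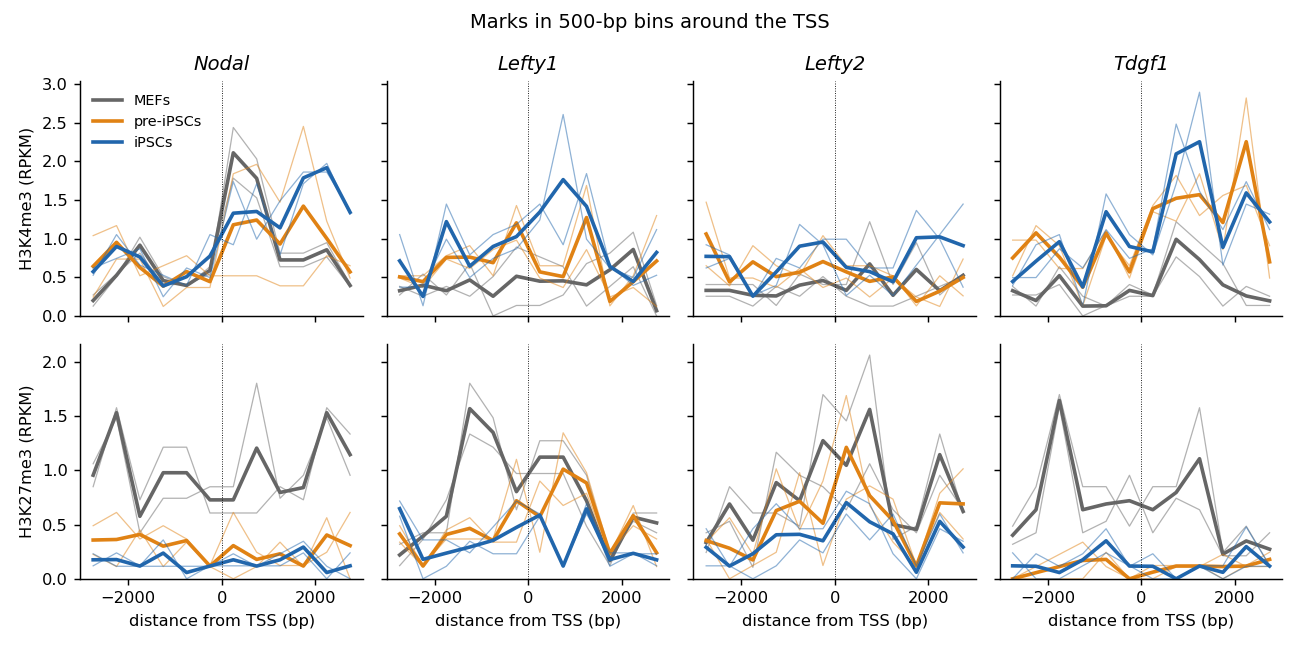
H3K4me3 (top) and H3K27me3 (bottom) in 500-bp bins within 3000 bp of the TSS of Nodal, Lefty1, Lefty2 and Tdgf1, in RPKM against distance in the direction of transcription. Thin lines are libraries and thick lines cell type means; H3K27me3 of MEFs at Nodal lies above that of the other cell types in every bin, and H3K4me3 at Tdgf1 in pre-iPSCs and iPSCs is highest downstream of the TSS.

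The marks differed in where they lay. At Nodal the mean H3K4me3 of MEFs was highest from the TSS to 500 bp downstream (2.11 RPKM) and that of iPSCs from 2000 to 2500 bp downstream (1.92 RPKM). Within 3000 bp of the TSS, a window added after the data were seen, Nodal was called higher in iPSCs than in MEFs for H3K4me3, by 0.70. At Tdgf1 the highest bin of iPSCs lay 1000 to 1500 bp downstream (2.26 RPKM) and that of pre-iPSCs 2000 to 2500 bp downstream (2.26 RPKM). At Lefty1 the highest bin of iPSCs lay 500 to 1000 bp downstream (1.76 RPKM). H3K27me3 of MEFs was highest upstream at Lefty1 (1.57 RPKM, -1500 to -1000 bp) and Tdgf1 (1.64 RPKM, -2000 to -1500 bp), and downstream at Lefty2 (1.56 RPKM, 500 to 1000 bp).

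Total H3 gave no call at any member or at any of the 19578 promoters (0%), with edgeR or DESeq2. At an unadjusted p below 0.05, edgeR counted 348, 109 and 249 promoters for pre-iPSCs against MEFs, iPSCs against pre-iPSCs and iPSCs against MEFs, and among the members only Tdgf1 between pre-iPSCs and MEFs (-1.04 ± 0.42). That value rests on the scaling: with library totals the median of all promoters moved from 0.06 to 0.92 in this comparison. Scaled to unique reads alone, H3 at Tdgf1 was 0.184 and 0.347 RPKM in MEFs and 0.373 and 0.110 RPKM in pre-iPSCs, and these ranges overlapped. The members had 97 to 372 reads in pre-iPSC replicate 1 and 19 to 64 in replicate 2. In simulated H3 data, 4 of 200 genes raised 4-fold were recovered, and 189 of 200 raised 16-fold. Differences of 4-fold or less were thus mostly not detectable at this spread. Without pre-iPSC replicate 2, promoters were called in both comparisons that involve pre-iPSCs. That fit has only pre-iPSC replicate 1 for its cell type, the library with a normalization factor of 1.96, so its counts are not given.

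H3K9me3 had 1 library a cell type, so it was not tested. Its reads at the members ran from 3 to 17 with exact Poisson intervals that overlapped between cell types. Nodal had 15 reads in MEFs (95% interval 8.40 to 24.7) and 8 in pre-iPSCs and in iPSCs (3.45 to 15.8). Lefty1 had 15, 6 and 12, Lefty2 13, 17 and 9, and Tdgf1 10, 4 and 7 in MEFs, pre-iPSCs and iPSCs. These intervals cover counting error only.

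The other genes of the pathway were taken from lists by role. Of 28 genes 21 passed the filter on low values. Between pre-iPSCs and MEFs 0 were higher and 5 lower, against 7.39% and 9% of all genes. Between iPSCs and pre-iPSCs 2 were higher and 0 lower, against 3.91% and 4.71%. Between iPSCs and MEFs 4 were higher and 6 lower, against 10.3% and 15.5%. Their median differences were -0.29, 0.036 and 0.074.

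**Figure D5:**
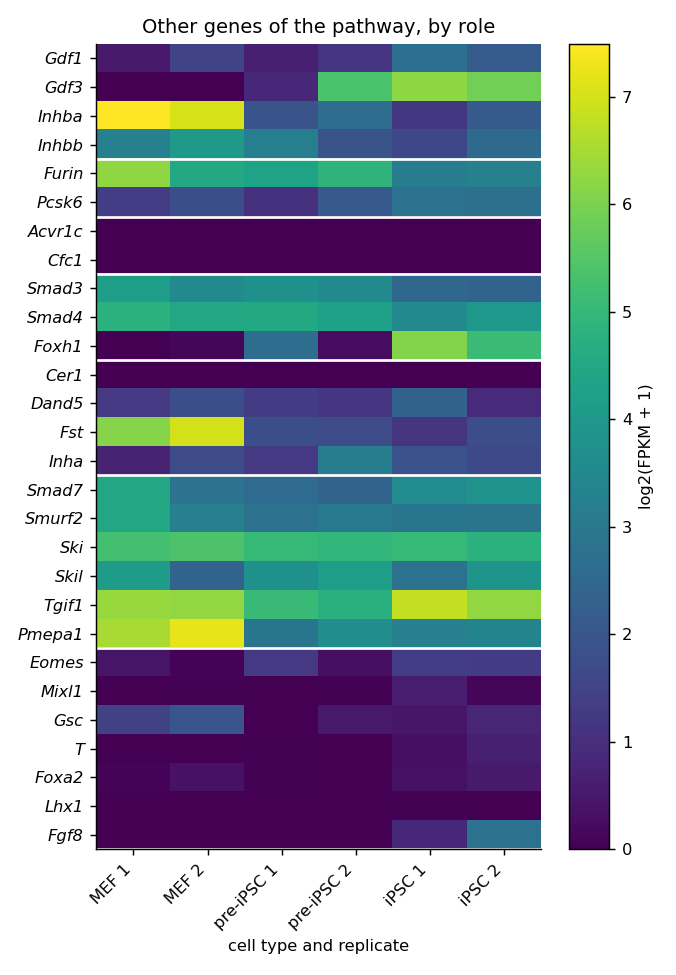
Expression of the 28 other pathway genes, as log2(FPKM + 1) in colour, with genes in rows grouped by role and the 6 libraries in columns. White lines part ligands, convertases, receptors, Smads and partners, extracellular inhibitors, intracellular inhibitors and target genes. Inhba, Fst and Pmepa1 are bright in MEFs only, Foxh1 is bright in iPSCs, and Gdf3 is bright in iPSCs and in pre-iPSC replicate 2.

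Among the 4 other ligands, Gdf3, which also signals through Cripto, was listed at 0 in both MEF libraries, at 0.788 and 40.5 FPKM in pre-iPSC replicates 1 and 2 and at 73.5 and 58.6 in iPSCs. The pre-iPSC libraries were far apart here too, but replicate 2 was the higher, unlike for Nodal. Gdf3 was higher in iPSCs than in MEFs by 6.06 ± 1.07 on the log2(FPKM + 1) scale (limma adjusted p = 0.00738), a call lost without iPSC replicate 1 (4.76). For H3K27me3 and H3K4me3 its promoter moved in the same directions as that of Tdgf1. H3K27me3 differed by a log2 value of -1.51 in pre-iPSCs and -2.18 in iPSCs from MEFs. H3K4me3 was higher by 1.44 and 1.59 (edgeR). H3K9me3, with 1 library a cell type, did not go alike. Its reads in MEFs, pre-iPSCs and iPSCs were 13, 24 and 5 at Gdf3 and 10, 4 and 7 at Tdgf1.

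Inhba, the activin A subunit, which signals through the same receptors without Cripto, went the other way. It was at 179 and 131 FPKM in MEFs, then 2.83 and 5.39 in pre-iPSCs, then 1.30 and 3.31 in iPSCs, and fell by 4.96 ± 0.43 in pre-iPSCs (limma adjusted p = 0.00111). Its H3K27me3 rose by 1.96 and its H3K4me3 fell by 1.61 in the same comparison (edgeR). The H3K27me3 reads were few, 1 and 7 in MEFs and 12 and 19 in pre-iPSCs. The H3K4me3 reads were 71 and 29 in MEFs, far apart, and 16 and 10 in pre-iPSCs. The mark changes of Gdf3, Inhba and Foxh1 were not followed over other settings, and those of the other listed genes are not given singly. Among the 4 other ligands, H3K27me3 was called higher at 2 and lower at 1 between pre-iPSCs and MEFs, against 5.04% and 3.25% of promoters. Only 1 of these ligands, Inhba, had a called transcript in that comparison, so marks and transcripts were not always called together. Fst (follistatin), which binds activin, fell by 4.81 ± 0.40 from MEFs to pre-iPSCs. Pmepa1, a TGF-beta target that restrains Smad signalling, fell too (-3.57 ± 0.35). The 8 fibroblast markers fell in the same comparison, all 8 called, with a median difference of -3.55. Whether fewer fibroblasts or feeder cells account for the levels of Inhba, Fst and Pmepa1 was not tested.

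Foxh1, the nuclear partner of the Smads, was at 0 and 0.0710 FPKM in MEFs, 5.43 and 0.199 in pre-iPSC replicates 1 and 2 and 67.4 and 33.4 in iPSCs. It had the same gap between pre-iPSC libraries as Nodal (r = 0.983 over the 6 libraries). It rose from pre-iPSCs to iPSCs by 4.13 ± 0.59 (limma adjusted p = 0.00728), a call lost without iPSC replicate 1 (4.21) or iPSC replicate 2 (4.04). Foxh1 also had less H3K27me3 (-2.08) and more H3K4me3 (1.32) in iPSCs than in MEFs (edgeR). Smad4 reached 26.7 FPKM with no call, and Smad3 was lower in iPSCs than in MEFs (-1.43 ± 0.36), a call lost without any 1 of 5 libraries, MEF replicate 2 being the exception (range -1.54 to -1.23).

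Of the convertases that cleave the Nodal precursor, Furin was lower in iPSCs than in MEFs (-2.17 ± 0.55) and Pcsk6 was at 1.10 to 5.94 FPKM with no call. The Furin call was lost without MEF replicate 1 (-1.15), iPSC replicate 1 (-1.82) or iPSC replicate 2 (-2.51). Cer1, an extracellular inhibitor, and Cfc1, the paralog of Tdgf1, were listed at 0 in all 6 libraries, and the receptor Acvr1c was at or below 0.0110 FPKM. Tgif1, a repressor of Smad targets, fell from MEFs to pre-iPSCs (-1.38 ± 0.35) and rose from pre-iPSCs to iPSCs (1.61 ± 0.35). The first of these was lost without MEF replicate 2 (-1.21), pre-iPSC replicate 1 (-1.39), pre-iPSC replicate 2 (-1.37) or iPSC replicate 2 (-1.38), and the second without either pre-iPSC or either iPSC library (1.45 to 1.77).

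Of 7 mesendoderm targets 3 passed the filter. Fgf8, at 0.796 and 6.07 FPKM in iPSCs and listed at 0 elsewhere, and Eomes, at 1.54 and 1.52 in iPSCs, were called higher against MEFs, and Gsc was called lower in pre-iPSCs and iPSCs. The difference of Fgf8 ran from 1.34 to 2.82 without a library, all called, but without iPSC replicate 2 Fgf8 did not pass the filter and was not tested, and with no filter on low values it was not called (1.83). The Eomes call was lost without either MEF or either iPSC library (0.78 to 1.41), that of Gsc in iPSCs likewise (-1.17 to -1.04), and that of Gsc in pre-iPSCs without pre-iPSC replicate 1 (-1.45). The endoderm and primitive streak genes Mixl1, Foxa2, Lhx1 and brachyury stayed at or below 0.576 FPKM in every library.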

How the data were processed

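RNA-seq (6 libraries) and ChIP-seq (21 libraries) of MEFs, pre-iPSCs and iPSCs were used. For ChIP-seq, alignment by the authors used Bowtie 1.0.1 and mm9, with unique reads and up to 2 mismatches. Duplicates were capped, reads were moved 73 bp to the dyad, and GeneTrack gave the nucleosome calls. Each deposited call carries its read count, and reads outside calls are not counted. For RNA-seq, the authors aligned reads with TopHat 2.0.4 and made the deposited FPKM with Cuffdiff 2.0.2, in 2 tables that each hold 1 replicate of every cell type. Read depth is not given with the FPKM.

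Members and gene lists were chosen with earlier results of these data known. Named genes are the members, the pathway lists (values where called) and, for Nodal, Lefty1, Lefty2 and Tdgf1, the 3 most correlated genes. Some genes are not reported here. The motif TATAAA was added after the sequences were seen. FPKM were tested as log2(FPKM + 1) with limma 3.58.1 (R 4.3.3), table as a term, mean FPKM of at least 0.5. The table term was used because the tables were made separately. Reads of calls within 1000 bp of the TSS went into the quasi-likelihood test of edgeR 4.0.16, after filterByExpr and TMM, on the study's unique read totals. Benjamini-Hochberg adjustment covered all genes or promoters. In simulated data 200 genes were raised in both pre-iPSCs and iPSCs, with each library varying independently. The rise was 2 on the log2(FPKM + 1) scale for expression and 4-fold in reads for the marks and H3. Of the 200, 165 were recovered for expression, 199 for H3K4me3, 200 for H3K27me3 and 4 for H3. Genes called without a planted change numbered 12, 6, 5 and 0 in the same order. With a 16-fold rise, 189 of 200 were recovered for H3, and 15 were called without a planted change. Alternatives were DESeq2 1.42.0, other windows, filters, scalings and pseudocounts, the replicate block and leaving out each library. Leaving out 1 of 2 libraries assumes that the remaining one has the spread of the other cell types.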

Additional observations from a re-analysis of the deposited data

How the results depend on the processing

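The 19 called changes of members were fitted again under the other settings, which gave 220 fits of a change. In 27 of these fits the change was no longer called, and in 0 it reversed. Of the 19 changes, 8 were called in every setting: all calls of Lefty1, Lefty2, Tdgf1 and Acvr2b in expression and that of Tdgf1 for H3K4me3 in iPSCs against MEFs. For pre-iPSCs against MEFs, members called in expression were 1, 2 with a pseudocount of 0.1, and 1 to 2 when each library was left out. For H3K4me3 they were 1, 0 with DESeq2, 3 within 3000 bp and 1 to 2 when each library was left out. For H3K27me3 they were 2, 0 with DESeq2, 1 within 500 bp and 1 to 2 when each library was left out. For iPSCs against pre-iPSCs, members called in expression were 3, and 2 with a pseudocount of 0.1 or no filter. For iPSCs against MEFs, H3K4me3 members called were 3, 1 with DESeq2, 5 within 3000 bp and 1 to 3 when each library was left out, and H3K27me3 members 4, 1 with DESeq2, 0 within 500 bp and 3 to 4 when each library was left out. Calls over all promoters moved in the same direction under DESeq2 and the 3000 bp window (for H3K4me3 in iPSCs against MEFs, 2463 of 17645, 120 of 17645 with DESeq2 and 5001 of 19427 within 3000 bp), and the cause was not tested.

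Reversals were all of changes that were not called. In expression, pre-iPSCs against MEFs, Lefty1 was at -0.029 with quantile normalization and ran from -0.13 (without MEF replicate 2) to 0.47 when each library was left out, with -0.026 without pre-iPSC replicate 1. Lefty2 ran from -0.094 (without pre-iPSC replicate 1) to 0.48, and Acvr2a from -0.66 to 0.087 (without MEF replicate 1). In iPSCs against pre-iPSCs Acvr1b ran from -0.47 (without iPSC replicate 2) to 1.12 and Acvr2a from -0.57 to 0.34 (without iPSC replicate 1). In iPSCs against MEFs Acvr2a ran from -0.85 to 0.057 (without iPSC replicate 1). For H3K4me3, Acvr2a in pre-iPSCs against MEFs was at 0.29 within 500 bp. Nodal in iPSCs against MEFs was at -0.30 with library totals, and ran from -0.048 (without iPSC replicate 2) to 0.15 when each library was left out. Of 45 other mark and H3 changes called in no setting, 24 changed sign in some setting.

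Counts over all genes moved too, in the order pre-iPSCs against MEFs, iPSCs against pre-iPSCs and iPSCs against MEFs. Expression called 2032, 1069 and 3206 genes, 1244, 788 and 2371 with no filter, and 1072 to 2912, 87 to 2281 and 1117 to 3720 without a library. H3K4me3 called 681, 6 and 2463 promoters, 31, 0 and 120 with DESeq2, 297, 0 and 923 within 500 bp, 2223, 32 and 5001 within 3000 bp, 1365, 21 and 3208 with library totals, and 97 to 898, 0 to 70 and 601 to 2315 without a library. H3K27me3 called 844, 82 and 1162, 45, 0 and 18 with DESeq2, 103, 4 and 161 within 500 bp, 2188, 235 and 3543 within 3000 bp, 591, 35 and 677 with calls of at least 2 reads, and 395 to 865, 9 to 132 and 460 to 1183 without a library.

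Same-numbered libraries did not deviate together in every pair of cell types. For MEFs with pre-iPSCs, pre-iPSCs with iPSCs and MEFs with iPSCs, r was 0.35, 0.11 and -0.20 in expression and -0.057, 0.80 and -0.011 for H3. It lay between -0.046 and 0.12 for H3K4me3 and between -0.045 and 0.031 for H3K27me3. The high r for H3 was that of the cell types whose replicate 1 stood apart in normalization. The tests of marks and H3 had no replicate block. In expression each of the tables holds 1 replicate number, so the term for the table is also a block on that number, used because the tables were made separately. With the replicate block, members called were 1, 0 and 3 for H3K4me3, 2, 0 and 4 for H3K27me3 and 0 for H3, and expression without the replicate block gave 1, 3 and 5, as in the main tests. Over all promoters the replicate block gave 0 in place of 6 for H3K4me3 and 39 in place of 82 for H3K27me3 between iPSCs and pre-iPSCs. Depth limits the marks, with 2 to 70 reads per member and library.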
